A study of Mus musculus with 2 samples.

Results

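Heat shock proteins and chaperones were compared between a culture of mouse bone marrow cells given silncMDSC, an siRNA that targets lncMDSC (lnc-C/EBPβ in the study), a long RNA without protein product, and a culture given control siRNA. Members were the genes whose platform symbol begins with Hspa, Hspb, Hspd, Hspe, Hsph, Hsp90 or Dnaj, together with Tcp1, Cct2, Cct3, Cct4, Cct5, Cct6a, Cct7 and Cct8, and the brightest probe set stood for each gene. This gave 80 genes among 18193 on the array. Both cultures came from C57BL/6 mice and were kept for 4 days in GM-CSF and IL-6, which drive marrow towards myeloid-derived suppressor cells (MDSCs), immature myeloid cells that restrain T cells, and each was read once on an Affymetrix mouse expression array. The level of the targeted RNA was not analysed here. With 1 array per group, no difference below has a replicate check or a test, and each describes these cultures only.

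Heat shock proteins bind unfolded protein chains and help them reach or keep their working shape. Hsp70 proteins hold short stretches of a chain in a cycle driven by ATP, J proteins bring them their clients and start the cycle, and Hsp110 proteins end it by exchanging the nucleotide. Hsp90 then finishes kinases and receptors, while the chaperonins enclose a whole chain in a chamber, TRiC in the cytosol and Hspd1 with its lid Hspe1 in mitochondria. Many of these genes answer to heat shock factor in the cytosol or to the unfolded protein response of the endoplasmic reticulum (ER).

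Both responses act through short promoter elements, so the RefSeq promoter windows of the members (GRCm38.p6, 250 bases before the start site) were searched for them on both strands. The heat shock element was searched as GAA, then TTC, then GAA, with any 2 bases between neighbouring blocks, and its matches on the opposite strand can overlap it. The ER stress response element was searched as CCAAT and CCACG with any 9 bases between them. Of the members, 66 had a promoter window, and the other 14 were not searched. The heat shock element was in at least 1 window of 3 of these 66 (4.55%), namely Hspd1, Hspe1 and Dnajb6, against 0.514% of all 27025 genes with a window. The matches of Hspd1 and Hspe1 are the same stretch of DNA, so this share counts that site for both genes. The ER stress response element was in 3 (4.55%), namely Hspa5, Hsp90b1 and Dnajc3, against 0.130% of all genes. A match is a description of letters and not of binding. Looser forms of either element were not searched, so a member without a match may still hold one. The windows of 4 members whose differences are given below are printed 5′ to 3′ on the strand of the gene, with the matches in capitals. They are chr1:55087898-55088147 on the plus strand for Hspe1, chr2:34771840-34772089 on the plus strand for Hspa5, chr10:86705445-86705694 on the minus strand for Hsp90b1 and chr14:118937682-118937931 on the plus strand for Dnajc3.
Hspe1: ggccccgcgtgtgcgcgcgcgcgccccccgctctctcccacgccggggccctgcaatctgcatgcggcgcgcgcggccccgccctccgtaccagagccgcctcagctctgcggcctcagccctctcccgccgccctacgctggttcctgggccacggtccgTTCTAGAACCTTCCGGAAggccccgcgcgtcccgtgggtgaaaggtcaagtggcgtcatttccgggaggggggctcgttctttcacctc
Hspa5: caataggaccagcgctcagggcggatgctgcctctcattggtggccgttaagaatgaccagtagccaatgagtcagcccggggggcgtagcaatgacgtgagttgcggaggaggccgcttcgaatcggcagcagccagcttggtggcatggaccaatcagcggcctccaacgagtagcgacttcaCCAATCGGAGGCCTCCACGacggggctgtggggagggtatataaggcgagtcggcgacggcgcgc
Hsp90b1: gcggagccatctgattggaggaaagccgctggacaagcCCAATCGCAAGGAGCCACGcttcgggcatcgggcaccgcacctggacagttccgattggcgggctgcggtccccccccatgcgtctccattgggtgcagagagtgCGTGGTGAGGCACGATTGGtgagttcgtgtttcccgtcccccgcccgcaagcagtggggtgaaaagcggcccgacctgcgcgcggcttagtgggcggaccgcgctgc
Dnajc3: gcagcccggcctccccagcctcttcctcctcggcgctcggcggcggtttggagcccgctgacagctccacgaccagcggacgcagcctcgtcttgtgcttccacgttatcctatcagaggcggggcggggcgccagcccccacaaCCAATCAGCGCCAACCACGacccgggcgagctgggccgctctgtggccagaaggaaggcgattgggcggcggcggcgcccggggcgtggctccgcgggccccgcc
In Hspe1 and in Hsp90b1 there were 2 matches each, which overlapped in Hspe1 and lay apart on opposite strands in Hsp90b1. Hspd1 and Hspe1 lie head to head on chromosome 1, and 215 bases of the window that holds the element of Hspd1 are the same stretch of DNA read from the other strand.

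The arrays had median intensities of 78.95 in silncMDSC and 77.86 in control siRNA. A gene was counted when the higher of its intensities reached 78.4, the median of all probe sets on both arrays, here called the floor. Differences are log2(intensity + 1) in silncMDSC minus that in control siRNA, and over the 11920 genes above the floor their median was -0.002 and their robust SD 0.18. A difference of 0.32 or more in size served as the limit beyond which genes were counted as apart. The 9 hybridisation spike probe sets, which carry no sample RNA, had a median difference of 0.11. Of 7 myeloid markers, 6 could be read, and all 6 were above the floor on both arrays with differences between -0.07 and 0.09, while Ly6g was not analysed here. The eosinophil genes Prg2 (0.55) and Epx (0.43) and the mast cell gene Cpa3 (0.48) were higher in silncMDSC and the mast cell gene Fcer1a lower (-0.44). The B cell genes Cd79a and Ms4a1 differed by -0.10 and -0.17 and the T cell genes Cd3e and Cd3d by 0.12 and 0.19, while the erythroid gene Hba-a1 was below the floor. In such mixed cultures, fewer cells of a type and less RNA per cell cannot be told apart, and the part of these cell types in the results was not tested.

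Chaperones were mostly lower in the silncMDSC culture, by small amounts. Of the 80 members, 64 were above the floor. In silncMDSC, 42 of these 64 were lower and 22 higher, whereas 50.7% of all genes above the floor were lower. Lower by 0.32 or more were 13 members, or 20.3% of those above the floor (6.95% of all genes). Higher by 0.32 or more were 3, or 4.69% (4.45% of all genes). Only Hsph1 was at least 1.5-fold apart (1.42% of all genes were that much lower and 0.948% that much higher). The median difference of the members was -0.12. The direction was more uniform among members with a high signal, while the members past the limit lay on both sides of that level. Of 23 members with a mean intensity of 1000 or more, a limit chosen after the values were seen, 22 were lower, with a median of -0.24, 6 of them lower by 0.32 or more and 0 higher by as much. Genes of that level in general were 58.0% lower, with a median of -0.03, and 5.24% were lower by 0.32 or more and 3.77% higher by as much. The 41 members above the floor but under that level were split, 20 lower and 21 higher, with a median of 0.03, yet they held 7 of the 13 members lower by 0.32 or more, Hsph1 among them, and all 3 higher by as much.

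**Figure D1:**
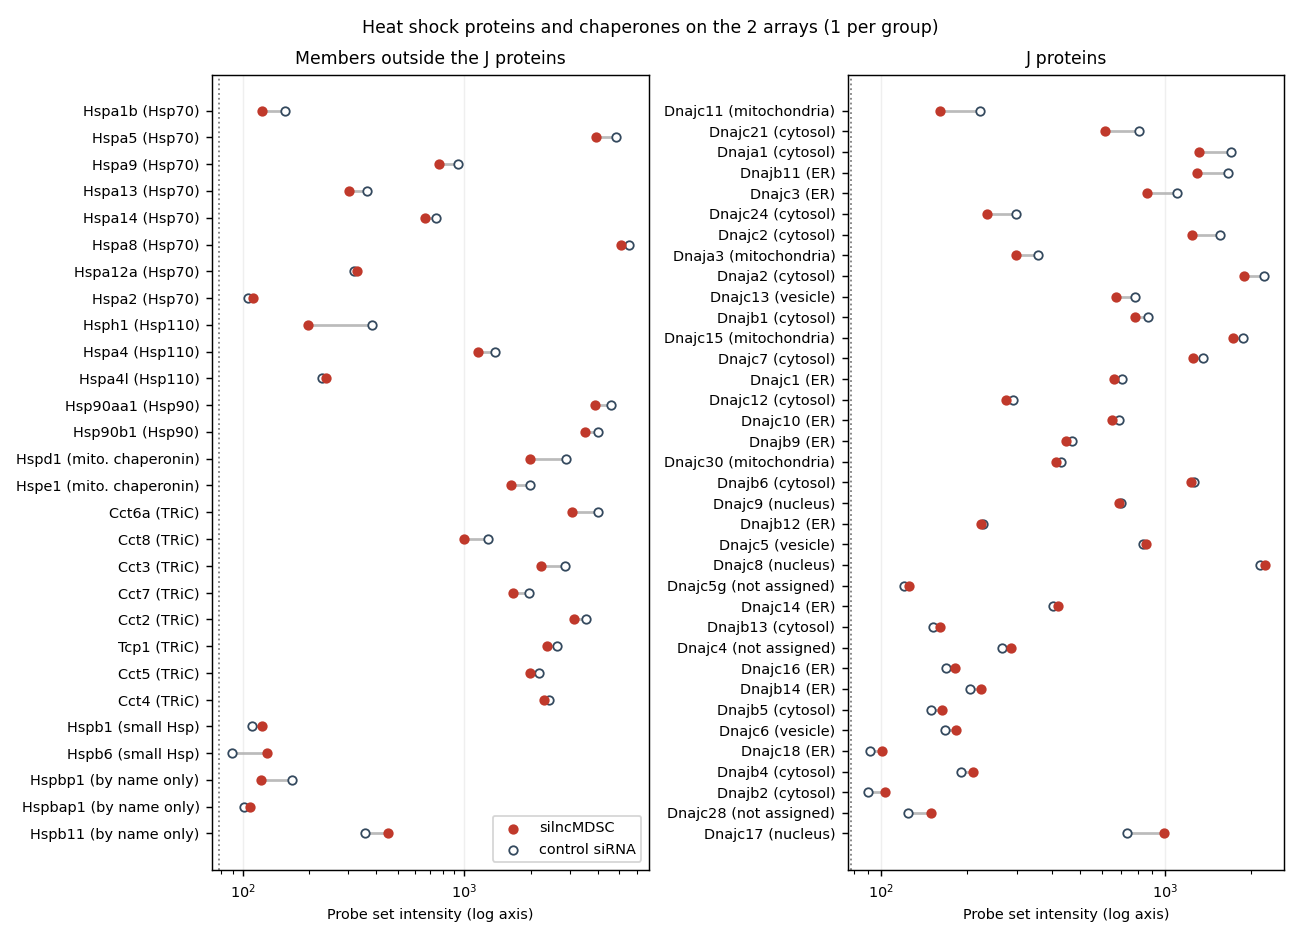
Probe set intensities (x axis, log scale) of the 64 members above the floor on the silncMDSC array (filled red) and the control siRNA array (open), 1 array each, with the floor of 78.4 as a dotted line. The left panel holds the 28 members outside the J proteins, where 21 lie lower in silncMDSC, and the right panel the 36 J proteins, where 21 do. Levels of different genes cannot be compared, since each is read by its own probes.

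Of the Hsp70 proteins above the floor, those of the ER and mitochondria were lower in silncMDSC, and so were those of the cytosol except Hspa2. Hspa5 (BiP), the Hsp70 of the ER, had an intensity of 3916 in silncMDSC and 4813 in control siRNA, 1.23-fold lower (-0.30), but its probe sets gave unequal sizes, -0.31 on the second and -0.02 on the third. Hspa9 (mortalin), which pulls proteins into mitochondria, had 767 in silncMDSC and 930.5 in control siRNA, 1.21-fold lower. Hspa13, a small Hsp70-like protein of the ER, had 300.3 in silncMDSC and 364 in control siRNA, 1.21-fold lower. On their brightest probe sets these 3 organelle members differed by nearly the same amount, between -0.28 and -0.30.

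Hspa8 (Hsc70), the constitutive Hsp70 of the cytosol, had 5061 in silncMDSC and 5507 in control siRNA, a difference of -0.12 on its brightest probe set. Its next probe sets gave -0.26 and -0.25, and a dim one had 81.2 in silncMDSC and 168 in control siRNA (-1.04). All 4 lay on the same side, so the direction did not depend on the probe set while the size did. Hspa14, which works at the ribosome, had 664 in silncMDSC and 745 in control siRNA (-0.17).

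The stress-inducible Hspa1b had 122 in silncMDSC and 155 in control siRNA, 1.26-fold lower, on a probe set just above the floor. Its near-identical neighbour Hspa1a had 52.3 in silncMDSC and 54.2 in control siRNA, both below the floor, and the pair may share signal. Hspa2, best known from testis, had 112 in silncMDSC and 106 in control siRNA (0.08), and the atypical Hspa12a 328 in silncMDSC and 317 in control siRNA (0.05). Of 8 Hsp70 members above the floor, 6 were lower (75%, against 50.7% of all genes). Only Hspa1b passed the limit of 0.32 (12.5%, against 6.95% of all genes). With 8 members, these shares cannot be told from those of all genes. Hspa1a, Hspa1l and Hspa12b were below the floor on both arrays.

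Hsph1 (Hsp105), an Hsp110 protein that is strongly induced by heat, was the member farthest apart. It had 198 in silncMDSC and 383 in control siRNA, 1.93-fold lower (-0.95), and of the 11920 genes only 17 lay further down. Its other probe set above the floor had 57.1 in silncMDSC and 107 in control siRNA (-0.89), so both probe sets gave nearly the same size, although the second is below the floor in silncMDSC. The other Hsp110 proteins did not share this size. Hspa4 (Apg-2) had 1152 in silncMDSC and 1373 in control siRNA (-0.25), and Hspa4l (Apg-1) had 239 in silncMDSC and 229 in control siRNA (0.06).

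Both Hsp90 genes that could be read were slightly lower. Hsp90aa1, the cytosolic form that stress induces, had 3872 in silncMDSC and 4569 in control siRNA, 1.18-fold lower (-0.24). Of its 4 other probe sets above the floor, 3 gave -0.24, -0.37 and -0.35 and the dimmest 0.04. Hsp90b1 (Grp94), the ER form, had 3496 in silncMDSC and 3999 in control siRNA, 1.14-fold lower, and its second probe set gave only -0.05. Hsp90ab1, the constitutive form of the cytosol, was not analysed here.

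Mitochondrial chaperonin was lower on both of its subunits. Hspd1 (Hsp60), which forms the folding chamber, had 1971 in silncMDSC and 2865 in control siRNA, 1.45-fold lower (-0.54), with 222 of the 11920 genes further down. Hspe1 (Hsp10), its lid, had 1626 in silncMDSC and 1969.8 in control siRNA, 1.21-fold lower (-0.28), and its second probe set gave -0.32. Hspd1 was read by 1 probe set only. These are the neighbours that share the promoter window with the heat shock element printed above, and Dnajb6, the other member with that element, had 1232 in silncMDSC and 1260 in control siRNA (-0.03), with 0.14 on its second probe set.

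TRiC, the cytosolic chaperonin that folds actin and tubulin, was lower on all 8 subunits, with a median of -0.20. Of all genes above the floor, 50.7% were lower. The mean intensities of the subunits ran from 1138 (Cct8) to 3513 (Cct6a), and of all genes at 1000 or more 58.0% were lower. The part of signal level in the shared direction was not tested. The subunits did not differ equally. Cct6a had 3042 in silncMDSC and 3985 in control siRNA, 1.31-fold lower. Cct8 had 997 in silncMDSC and 1279 in control siRNA, 1.28-fold lower, with only 1 of its 2 probe sets above the floor. Cct3 had 2217 in silncMDSC and 2826 in control siRNA, 1.27-fold lower. These 3 subunits passed the limit of 0.32 (37.5%, against 6.95% of all genes and 5.24% of those at 1000 or more). The 6 probe sets of Cct3 above the floor all lay between -0.71 and -0.22.

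The remaining subunits differed by less. Cct7 had 1663 in silncMDSC and 1960.0 in control siRNA (-0.24), and Cct2 had 3126 in silncMDSC and 3515 in control siRNA (-0.17). Tcp1, which names the complex, had 2344 in silncMDSC and 2608 in control siRNA (-0.15), and Cct5 had 1967 in silncMDSC and 2171 in control siRNA (-0.14). Cct4 was nearly level, with 2288 in silncMDSC and 2409 in control siRNA (-0.07), and its 4 probe sets above the floor ran from -0.12 to 0.09. All subunits stand in the ring in equal number, yet the differences of their messages spread from -0.39 to -0.07.

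J proteins were split in direction, with 21 of the 36 above the floor lower (58.3%, against 50.7% of all genes). Their median was -0.05. They are taken here by where they work, and the part of signal level in this was not tested. In the cytosol, 13 of 18 were above the floor, and 9 of these were lower. By 0.32 or more, 3 were lower (23.1%, against 6.95% of all genes). Dnaja1 (Hdj2), a general partner of Hspa8, had 1317 in silncMDSC and 1699 in control siRNA, 1.29-fold lower, and its other probe sets gave -0.41 and -0.54. Dnajc24 (Dph4), which takes part in making the diphthamide of elongation factor eEF2, had 235 in silncMDSC and 297 in control siRNA, 1.26-fold lower. Only 1 of its 2 probe sets was above the floor. The heat-inducible Dnajb1 (Hsp40) had 783 in silncMDSC and 869 in control siRNA (-0.15), a smaller difference than that of Hsph1. The cytosolic Dnaja2, another general Hsp70 partner, had 1897 in silncMDSC and 2229 in control siRNA (-0.23), with 0.11 on 1 of its 4 probe sets and values below 0 on the others. Dnajc7 (-0.11), which links Hsp70 to Hsp90, and Dnajc12 (-0.08) were closer to level. The cytosolic J proteins that were higher, Dnajb2, Dnajb4, Dnajb5 and Dnajb13, differed by 0.08 to 0.19, though the second probe set of Dnajb5 gave -0.06. Their mean intensities were only 96.1 to 199.7.

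Dnajc21, Dnajc2 and Hspa14, linked to the ribosome, were all lower. They were grouped after their values were seen, so their shared direction is no separate result. Dnajc21, which helps mature the large ribosomal subunit, had 613 in silncMDSC and 807 in control siRNA, 1.32-fold lower, with -0.43 on its second probe set. Dnajc2 (zuotin), which sits at the ribosome with Hspa14, had 1243 in silncMDSC and 1552 in control siRNA (-0.32), just short of the limit before rounding, with -0.49 on its second probe set. The median of these 3 ribosome-linked members was -0.32, and only Dnajc21 passed the limit.

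ER members were divided by whether they work inside the ER or sit in its membrane, a division made after the values were seen. All 7 members of the lumen were lower, with a median of -0.28 (50.7% of all genes were lower). The 6 membrane members above the floor lay between -0.09 and 0.14 on their brightest probe sets, with a median of 0.09, but 5 of them have a next probe set on the other side of 0. Mean intensities were at most 680 in the membrane group and up to 4365 in the lumen, and the part of signal level was not tested. In the lumen, Dnajb11 (ERdj3), a partner of BiP, had 1293 in silncMDSC and 1663 in control siRNA, 1.29-fold lower on its 1 probe set. Dnajc3 (p58IPK), another BiP partner, had 862 in silncMDSC and 1094 in control siRNA, 1.27-fold lower, and its 5 probe sets lay between -0.58 and -0.22. Dnajb9 (ERdj4) had 445 in silncMDSC and 468 in control siRNA (-0.07), and Dnajc10 (ERdj5), a disulphide reductase, had 651 in silncMDSC and 685 in control siRNA (-0.07). The lumen was therefore uneven, with BiP and its partners Dnajb11 and Dnajc3 at the low end. The 3 members whose printed promoters hold the ER stress response element differed by -0.34 (Dnajc3), -0.30 (Hspa5) and -0.19 (Hsp90b1).

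ER membrane J proteins, which turn their J domain to the cytosol or the lumen, stayed close to level, and none has a direction that its probe sets share. Dnajc18 had 100.4 in silncMDSC and 91.3 in control siRNA (0.14), Dnajb14 had 224 in silncMDSC and 205 in control siRNA (0.13), and Dnajc16 had 181 in silncMDSC and 168 in control siRNA (0.11). Dnajc14 (0.07), Dnajb12 (-0.02) and Dnajc1 (-0.09) completed the group. The next probe sets of Dnajc18 (-0.11), Dnajb14 (-0.05), Dnajc16 (-0.14), Dnajc14 (-0.10) and Dnajb12 (0.07) lay on the other side of 0, as did the third of Dnajc1 (0.06). Dnajc25 was below the floor on both arrays.

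The members placed in mitochondria here were all lower, 7 of 7, with a median of -0.28 (50.7% of all genes were lower). Besides Hspd1, Hspe1 and Hspa9, these were 4 J proteins. All 6 members above the floor that were not placed in any compartment were higher, so the 7 of 7 rests on the placing used here. Dnajc11, linked to the organisation of the cristae, had 161 in silncMDSC and 222 in control siRNA, 1.38-fold lower, with -0.38 and -0.05 on its other probe sets above the floor. Dnaja3 (Tid1), the partner of mortalin, had 298 in silncMDSC and 357 in control siRNA (-0.26). Dnajc15, which belongs to the import motor, had 1727 in silncMDSC and 1876 in control siRNA (-0.12), and Dnajc30 had 410.3 in silncMDSC and 429 in control siRNA (-0.06). The last pair differed by less than the robust SD of all genes. Dnajc19, the other J protein of the motor, is read by probe sets that also belong to its pseudogene and was not counted. The brightest of these had 726 in silncMDSC and 817 in control siRNA (-0.17). The mitochondrial folding partners outside the rule, given further below, were less uniform, with 5 of 8 lower and a median of -0.10.

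**Figure D2:**
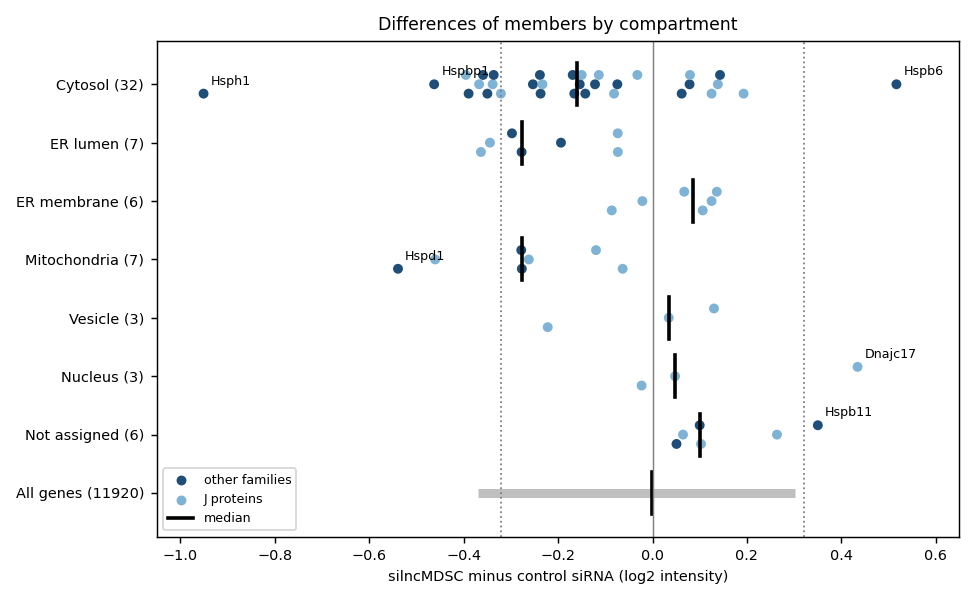
Each point is a member above the floor, with its silncMDSC minus control siRNA difference (x axis, log2) by compartment (rows, number of members in brackets), light blue for J proteins and dark blue for other families, and black bars are medians. All members placed in the ER lumen and the mitochondria lie below 0, and all those not assigned lie above 0. The grey bar for all 11920 genes spans the 5th to 95th percentile (-0.37 to 0.30). Dotted lines mark the limit of 0.32 on either side.

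J proteins of vesicles and of the nucleus did not share the direction. Dnajc5 (cysteine string protein), which guards secretion, had 853 in silncMDSC and 833 in control siRNA (0.03), with -0.02 on its second probe set, and the clathrin uncoating factor Dnajc6 (auxilin) 183 in silncMDSC and 167 in control siRNA (0.13). The endosomal Dnajc13 (RME-8) had 669 in silncMDSC and 780.3 in control siRNA (-0.22), with 0.01 on its second probe set. In the nucleus, the histone chaperone Dnajc9 (-0.02) and the splicing-linked Dnajc8 (0.05) were nearly level. Dnajc17, also a nuclear protein, had 992 in silncMDSC and 734 in control siRNA, 1.35-fold higher, but its second probe set had 101 in silncMDSC and 106 in control siRNA (-0.08), so the difference rests on 1 probe set.

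Small heat shock proteins, which hold unfolded chains without ATP, were dim. Of 7, only Hspb1 and Hspb6 were above the floor. Hspb6 (Hsp20) had 129 in silncMDSC and 89.7 in control siRNA, 1.43-fold higher, close to the floor and on 1 probe set. Hspb1, the mouse Hsp25, had 122 in silncMDSC and 111 in control siRNA (0.14), with 0.02 on its second probe set.

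Other members carry the name without being classical chaperones, or could not be placed. Hspbp1, a nucleotide exchange factor that releases clients from Hsp70, had 120.4 in silncMDSC and 166 in control siRNA, 1.38-fold lower. Like Hspb6, it was close to the floor and read by 1 probe set. Hspb11 (Ift25), a part of the transport machinery of cilia, had 453 in silncMDSC and 355 in control siRNA, 1.27-fold higher. Only 1 of its 2 probe sets was above the floor. Hspbap1, which binds a small heat shock protein, differed by 0.10. Dnajc28 (0.26), Dnajc4 (0.10) and Dnajc5g (0.06), not placed in a compartment here, were all somewhat higher. The 3 members higher by 0.32 or more were Hspb6, Dnajc17 and Hspb11. They are 4.69% of those above the floor, near the 4.45% of all genes, so nothing is read from the families they belong to. In all, 16 members stayed under the floor on either array, so no difference is given for them. They were the 3 Hsp70 members named above, the small heat shock proteins Hspb2, Hspb3, Hspb7, Hspb8 and Hspb9, and the J proteins Dnaja4, Dnajb3, Dnajb7, Dnajb8, Dnajc5b, Dnajc22, Dnajc25 and Dnajc27.

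Other probe sets of the same genes gave a second reading from the same RNA, though not a second sample. Among 40 members with at least 2 probe sets above the floor, the next brightest lay on the same side of 0 as the brightest in 30, or 75%, close to the 71.8% of all 4845 such genes. Of 9 members past the limit of 0.32 that had such a second probe set, 8 kept their side, as did 88.3% of all 571 such genes, and the exception was Dnajc17. Over all 137 member probe sets above the floor, 98 were lower and 39 higher, with 33 lower by 0.32 or more and 3 higher by as much. Of all 19739 probe sets of 1 gene above the floor, 51.7% were lower, 7.53% were lower by 0.32 or more and 4.24% higher by as much. Probe sets of 1 gene are not independent, and members with many count more here.

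**Figure D3:**
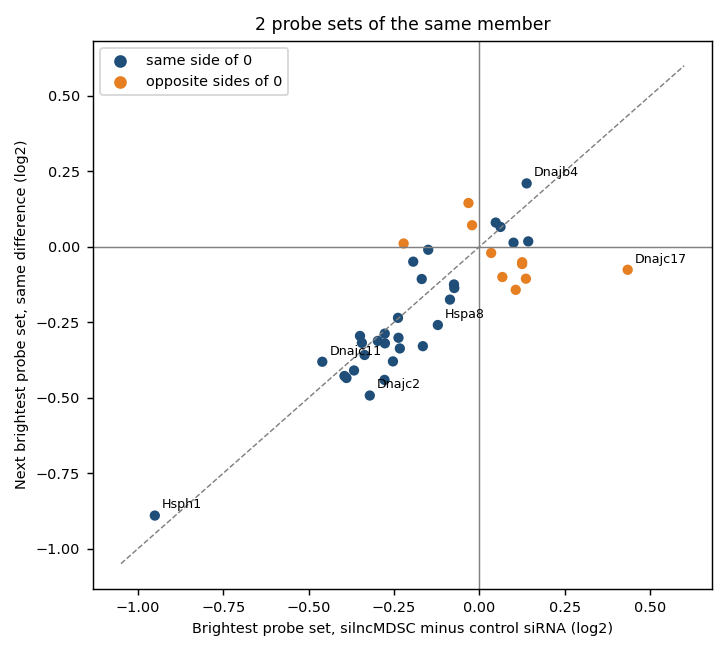
Each point is 1 of 40 members with at least 2 probe sets above the floor, with the silncMDSC minus control siRNA difference (log2) of its brightest probe set (x axis) against that of the next brightest (y axis). Blue points (30) lie on the same side of 0 on both and orange points (10) on opposite sides, and the dashed line marks equal differences. Hsph1 (-0.95 and -0.89) stands apart at the lower left, and Dnajc17 (0.43 and -0.08) at the right.

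Partners of the chaperones that the naming rule leaves out were listed separately. The list was made with earlier results of these data known, so it gives no independent support. Of 50 partners, 47 had a probe set of 1 gene and 43 were above the floor. In silncMDSC 33 of these were lower and 10 higher, with a median of -0.14, 12 lower by 0.32 or more (27.9%) and 0 higher by as much. Of all genes above the floor, 50.7% were lower, 6.95% lower by 0.32 or more and 4.45% higher by as much. Cacybp, an adaptor of a ubiquitin ligase that binds Hsp90 partners, had 839 in silncMDSC and 1326 in control siRNA, 1.58-fold lower. Ahsa1 (Aha1), which speeds the ATPase of Hsp90, had 655 in silncMDSC and 862 in control siRNA, 1.31-fold lower. Chordc1 (1.28-fold) and Fkbp4 (1.26-fold), both bound to Hsp90, were also lower, and Stip1 (Hop), which hands clients from Hsp70 to Hsp90, had 548 in silncMDSC and 680.5 in control siRNA (-0.31). The kinase adaptor Cdc37 (-0.02) and Fkbp5 (-0.04) were nearly level. Sugt1, a co-chaperone of Hsp90, had 2038 in silncMDSC and 1877 in control siRNA (0.12), and the myosin chaperone Unc45a had 389 in silncMDSC and 369 in control siRNA (0.07). Of the 11 Hsp90 partners above the floor, these were the 2 that were higher.

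In the ER list, 10 of 12 were lower (83.3%, against 50.7% of all genes). Of the 12, 4 were lower by 0.32 or more (33.3%, against 6.95% of all genes). Pdia4, a disulphide isomerase, had 528 in silncMDSC and 699 in control siRNA, 1.32-fold lower. Manf, a secreted stress factor that binds BiP, had 1954 in silncMDSC and 2544 in control siRNA, 1.30-fold lower. Hyou1, the Hsp110 of the ER, and Sec63, a J protein of the translocon, were each 1.26-fold lower. P4hb, the main disulphide isomerase, had 3484 in silncMDSC and 3228 in control siRNA (0.11), and the BiP exchange factor Sil1 255 in silncMDSC and 219 in control siRNA (0.22). The 6 other members of the ER list above the floor, Creld2, Sdf2l1, Calr, Pdia3, Pdia6 and Canx, differed by -0.30 to -0.08.

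Elsewhere, Bag5, a nucleotide exchange factor of Hsp70, had 235 in silncMDSC and 323 in control siRNA, 1.37-fold lower, whereas the heat-inducible Bag3 had 160.2 in silncMDSC and 167 in control siRNA (-0.06). In the mitochondrial list, 5 of 8 were lower (62.5%, against 50.7% of all genes). Of the 8, 1 was lower by 0.32 or more (12.5%, against 6.95% of all genes). This was Clpp, a protease of the matrix, with 350 in silncMDSC and 486 in control siRNA, 1.39-fold lower. Counts this small cannot be told from those shares. The matrix protease Lonp1 had 359 in silncMDSC and 358 in control siRNA. Grpel1, the exchange factor of mortalin, differed by -0.23, Trap1 by -0.08, and Hscb, a J protein of iron-sulphur cluster assembly, by 0.26. Of 6 subunits of prefoldin, which passes chains to TRiC, 4 were lower (66.7%). Of these Pfdn4 (-0.38) and Pfdn2 (-0.32) passed the limit (33.3% of the 6). Pfdn5 had 2559 in silncMDSC and 2224 in control siRNA (0.20). Hsf2 was below the floor on both arrays, and Hsf1 was not analysed here.

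**Figure D4:**
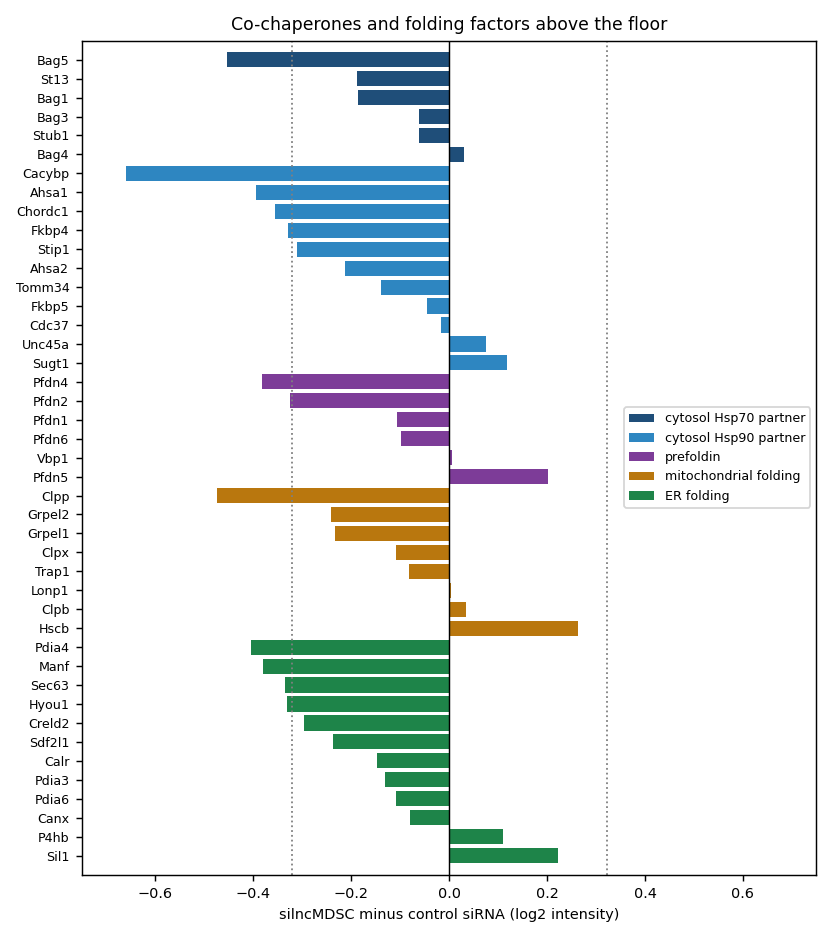
Bars show the silncMDSC minus control siRNA difference in log2 units (x axis) of the 43 co-chaperones and folding factors above the floor, coloured by role. Of these, 33 lie below 0, Cacybp furthest (-0.66), and 12 pass the dotted line at 0.32 on the lower side while 0 pass it on the higher side.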

How the data were processed

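Total RNA (6 µg, per the labels) of 1 culture per group was hybridised to 1 array each. The authors deposited 1 intensity per probe set, on a linear scale, from 1 to 13880 in silncMDSC and 13983 in control siRNA. The submitters' processing notes name RMA, which normally gives log2 values. The sources used here give neither its version, nor the step back to a linear scale, nor why the lowest value is 1. The number of arrays limits the precision.

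Of 45037 probe sets, 34945 had 1 symbol in the platform annotation, and only these were used. The probe set with the highest mean stood for a gene, and log2 differences were taken after adding a pseudocount of 1, so folds are on that scale and slightly understate the folds of dim genes. All 80 members were found in RefSeq (GRCm38.p6) under the same symbol. The methods name limma, which cannot be run on 1 array per group, so counts past a fixed fold (0.32 on the log2 scale) and medians are given beside those of all genes. Named in the text are members above the floor outside the J proteins, J proteins of the ER and mitochondria, and other J proteins past that limit, and likewise the partners past it with some others of each role. Further members and partners were named, and the ribosome and ER divisions made, after their values were seen. The members and lists were chosen with earlier results of these data known. Alternatives were another scaling, pseudocount (16), floor and probe set rule. The calculation was checked on simulated data, with Python 3.11.15 and pandas 2.3.3.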

Additional observations from a re-analysis of the deposited data

How the results depend on the processing

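The median differences of all, cytosolic, ER, mitochondrial, TRiC and partner genes stayed below 0 under each alternative tried (centring, loess trend removed with a span of 0.3, quantile normalization, pseudocount of 16, no floor, a floor at the 75th percentile, the mean of all probe sets, no _x_at, _s_at or _a_at probe sets, and the farthest member left out). They ranged from -0.24 to -0.08 for all members, -0.23 to -0.12 for the cytosol, -0.11 to -0.04 for the ER, -0.30 to -0.20 for mitochondria, -0.21 to -0.17 for TRiC and -0.18 to -0.11 for the partners. The lowest value for all members, -0.24, was that at a mean intensity of 1000 or more, a setting chosen after seeing the data. The counts of 13 lower and 3 higher members became 6 and 0 at that level, and 1 and 0 with 1.5-fold in place of the limit of 0.32 (log2). Among 351 differences of 46 named members under the alternatives, 345 moved by less than the robust SD of all genes. The others were Hspa8, whose one remaining probe set without the suffixes gave -1.04, and, with the mean of all probe sets, Hspa8 (-0.42), Cct8 (-0.66), Dnajc11 (-0.24), Dnajc21 (-0.15) and Dnajc17 (0.13). That mean also takes in probe sets below the floor, among them the second of Cct8 (4.16 in silncMDSC and 9.10 in control siRNA). The probe sets of Dnajc21 above the floor gave -0.40 and -0.43. Of the 46, Cct4, Dnajb12, Dnajc14 and Dnajc16, all within the limit of 0.32, changed sign under at least 1 alternative, Cct4 only with the mean of all probe sets. Other members given above, among them Dnaja2, Dnajb5, Dnajb6 and Dnajc2, were not followed one by one under the alternatives, so their stability is not known. Members whose probe sets an alternative removed gave no value there, among them Hsph1 without the suffixes, since both of its probe sets carry them. No paired analysis was possible because each group held 1 array, and for the same reason no array could be left out.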
